A study of Mus musculus with 10 samples.

Results

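Immediate early genes (IEGs) were examined in single-nucleus RNA-sequencing (snRNA-seq) data from mouse PVT, the midline thalamic paraventricular nucleus, and its surroundings. The set was given by name and holds 10 genes of the 33502 symbols in the deposited count matrix: *Fos*, *Fosb*, *Junb*, *Jun*, *Egr1*, *Egr3*, *Egr4*, *Npas4*, *Btg2* and *Nr4a1*. The question asked of them was in which cell types and libraries they were detected, and whether they were detected in the same nuclei more often than the depth of those nuclei gives. All mice were C57BL/6J animals of 12 weeks with no treatment or genotype named in the labels, and the methods describe pooling of 4 mice per sample for 4 replicates, with nothing stated for the other libraries. Of the 10 libraries, 6 carry a female label and 4 carry none. The deposited metadata list these 4 as male, and they are called male here. The labels name no stimulated group, so the values are those of tissue taken without a named stimulus. Nuclei were isolated from punches of the PVT and run on droplets with 3′ capture.

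The matrix held raw counts of unique molecular identifiers (UMIs), each a captured RNA molecule, in 20503 nuclei, of which 10410 were neurons and 9699 were glia (astrocytes, oligodendrocytes, oligodendrocyte precursor cells (OPCs), microglia and ependymal cells). Cell types and 8 neuron clusters were those of the deposited annotation, and 35 of 35 markers checked had their highest level in the type they mark. Depth differed with sex: the median neuron held 12586 to 21085 UMIs in the male libraries and 5666 to 9770 in the female ones, so sex, depth and deposit cannot be told apart. Libraries ranged from 5119927 to 55956635 UMIs and from 875 to 7213 nuclei. Barcodes found in more than 1 library numbered 46. Levels are given in CPM, a gene's UMIs in a cell type of a library scaled to the same total of UMIs, with SD over libraries, and the library is the replicate throughout.

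IEGs are transcribed within minutes of a stimulus without new protein synthesis, through factors such as CREB and SRF that calcium and MAP kinase signaling activate. In neurons they are widely used as a record of recent firing, and several of them also respond to growth factors, stress and tissue handling in other cells. *Fos*, *Fosb*, *Jun* and *Junb* encode subunits of the dimeric factor AP-1, *Egr1*, *Egr3* and *Egr4* encode zinc finger factors, *Npas4* encodes a neuronal bHLH-PAS factor induced by calcium entry, *Nr4a1* encodes an orphan nuclear receptor, and *Btg2* encodes an antiproliferative protein that acts on mRNA deadenylation.

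The promoters of 8 of the 10 members were in the RefSeq table (GRCm38.p6) used here, and the 250 bases before the annotated start were searched on both strands. The cAMP response element core TGACG was in 7 of the 8, against 17.8% of all 32851 promoters of this length. The full palindromic element TGACGTCA, which contains the core, was in *Btg2* alone, against 1.55% of all. An EGR site, GCGNGGGCG, was in 3 members (*Btg2*, *Fosb*, *Nr4a1*), against 4.70% of all. The AP-1 site TGANTCA and the CArG box, bound by SRF, were in 0 of the 8 within these 250 bases (6.75% and 1.47% of all promoters). *Fos* (chr12:85473640-85473889, plus strand), *Egr4* (chr6:85513590-85513839, minus strand) and *Btg2* (chr1:134079156-134079405, minus strand) are shown as members that hold the core, and *Jun* (chr4:95052223-95052472, minus strand) as the member that does not. Capitals mark TGACG on either strand (read as CGTCA on the opposite strand), the full element, and the EGR site.
Fos: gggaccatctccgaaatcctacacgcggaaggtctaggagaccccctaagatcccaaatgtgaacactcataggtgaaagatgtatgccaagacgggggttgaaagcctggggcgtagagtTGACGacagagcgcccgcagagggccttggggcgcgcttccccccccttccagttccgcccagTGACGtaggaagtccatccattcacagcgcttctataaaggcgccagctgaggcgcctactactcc
Egr4: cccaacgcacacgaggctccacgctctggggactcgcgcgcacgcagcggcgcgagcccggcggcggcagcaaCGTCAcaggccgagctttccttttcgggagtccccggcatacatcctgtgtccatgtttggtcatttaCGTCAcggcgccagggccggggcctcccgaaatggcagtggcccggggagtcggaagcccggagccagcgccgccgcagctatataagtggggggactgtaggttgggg
Btg2: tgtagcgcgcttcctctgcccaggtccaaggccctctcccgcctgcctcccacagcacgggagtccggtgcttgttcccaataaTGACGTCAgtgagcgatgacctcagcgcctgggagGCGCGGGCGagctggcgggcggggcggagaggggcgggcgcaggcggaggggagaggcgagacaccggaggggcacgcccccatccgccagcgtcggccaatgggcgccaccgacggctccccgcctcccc
Jun: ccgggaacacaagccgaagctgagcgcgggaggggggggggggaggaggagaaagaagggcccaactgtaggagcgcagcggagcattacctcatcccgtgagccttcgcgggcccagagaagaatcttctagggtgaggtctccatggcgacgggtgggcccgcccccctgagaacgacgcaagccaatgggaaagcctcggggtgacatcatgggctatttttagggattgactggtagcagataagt
A match of letters is a description of the sequence and not evidence of binding.

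The members fell into different patterns across cell types. Neurons held 79.6% of all UMIs and 84.0% of the 21783 member UMIs. Their share was 96.6% for *Egr4*, 96.4% for *Npas4*, 95.7% for *Fosb*, 92.7% for *Nr4a1*, 91.4% for *Fos* and 90.4% for *Egr3*. It was 86.6% for *Egr1* and 82.5% for *Junb*, and below the neurons' share of all UMIs for *Btg2* (75.1%) and *Jun* (46.2%).

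*Jun* was lower in neurons than in the mean of the other types. Its level in neurons was 7.47 ± 2.32 CPM (SD, n = 10), against 16.6 ± 12.3 in astrocytes (n = 10), 56.1 ± 35.4 in oligodendrocytes (n = 10), 61.2 ± 43.1 in microglia (n = 10), 70.3 ± 52.0 in ependymal cells (n = 9), 87.1 ± 45.2 in OPCs (n = 9), 53.8 ± 86.6 in fibroblasts (n = 8) and 157 ± 77.6 in endothelial cells (n = 7). The spreads of oligodendrocytes, microglia, ependymal cells and OPCs overlapped, and these types were not tested against each other within libraries. In the fit across all genes (edgeR quasi-likelihood test, library as a block), *Jun* was lower in neurons than in the mean of the other 7 types, with a difference of -2.46 ± 0.21 (SE) on the log2 scale (adjusted p = 4.34e-17). It was the only one of the 4 members that passed the filter on low counts to be called lower, where 27.5% of the 9789 genes tested were called lower in neurons. A call needed a log2 change beyond 0.5 besides an adjusted p under 0.05. Against the mean of their own other types, OPCs called *Jun* higher by 0.91 ± 0.24 on the log2 scale (19.2% of genes were called higher there) and ependymal cells by 0.75 ± 0.26 (26.7%).

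*Junb* was highest in microglia, at 69.6 ± 43.8 CPM, against 11.9 ± 5.39 in neurons and 3.8 ± 2.34 in astrocytes. In microglia the male libraries held 10.8, 83.9, 31.1 and 22.1, and the female ones 44.2 at the lowest, 90.6 at the median and 143 at the highest. The level was lowest in male replicate 1, which held 1 UMI, and the male and female ranges overlapped. *Btg2* was highest in endothelial cells (169 ± 109, n = 7), fibroblasts (105 ± 68.1, n = 8) and microglia (97.1 ± 52.3), against 23.9 ± 13.4 in neurons and 26.7 ± 11.2 in astrocytes. The spreads of neurons and astrocytes in *Btg2* overlapped, and these types were not tested against each other within libraries. Microglia called 2 members higher than the mean of the other types, *Junb* by 2.88 ± 0.24 and *Btg2* by 1.78 ± 0.19 on the log2 scale (adjusted p = 1.61e-17 and 2.43e-13 in edgeR), where 22.8% of genes were called higher in microglia. Endothelial cells called all 4 members that passed the filter, *Btg2* (2.89 ± 0.26), *Junb* (2.28 ± 0.41), *Jun* (2.05 ± 0.32) and *Egr1* (1.47 ± 0.41), where 18.4% of genes were called higher. A gene could pass the filter through the types in which it was high, so these counts describe the 4 members and not the set. Without the filter *Egr3* was also called higher in endothelial cells, and *Fos*, *Fosb*, *Nr4a1*, *Npas4* and *Egr4* were not. The share of all genes at that setting is not given. Fibroblasts called *Egr1* (2.04 ± 0.40) and *Btg2* (1.37 ± 0.33), where 11.2% of genes were called higher, and called 0 lower, where 9.12% of genes were. Endothelial and fibroblast values rest on 215 and 179 nuclei. Lower calls were made for *Jun*, *Junb* and *Egr1* in astrocytes (19.8% of genes were called lower there), for *Btg2*, *Junb* and *Egr1* in oligodendrocytes (26%) and ependymal cells (19.2%), for *Btg2* and *Junb* in OPCs (14.7%) and for *Egr1* in microglia (27.4%), with log2 changes from -2.21 ± 0.27 (*Btg2* in oligodendrocytes) to -0.83 ± 0.35 (*Egr1* in microglia).

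*Fos*, *Nr4a1*, *Npas4*, *Fosb*, *Egr3* and *Egr4* did not pass the filter on low counts in this fit. The filter asks for a minimum level in a number of sums, most of which are not neuronal, so failing it does not mean few UMIs. *Fos* (3922 UMIs in all), *Nr4a1* (2670) and *Npas4* (2610) had more than *Jun* (2163) and *Junb* (1857), which passed. None of the 4 members that passed was called higher in neurons (29.7% of all genes were). These 4 had their highest mean levels in other types, such as *Junb* in microglia (69.6 CPM) and *Egr1* in fibroblasts (66.9 CPM). A gene could pass the filter through such types, so the 0 describes these 4 members and not the set. *Junb* and *Egr1* had an adjusted p of 0.0346 and 0.0370 in edgeR but log2 changes of 0.47 ± 0.20 and 0.43 ± 0.19, under the limit of 0.5. With an unadjusted p under 0.05 and the same limit on the fold the number was also 0, and it was 0 with DESeq2. It was 1 or 2 without male replicate 1, male replicate 4, female replicate 1 or female replicate 5. Without nuclei of other types that held 2 or more neuronal markers, *Junb* was called higher, by 1.15 on the log2 scale (adjusted p = 0.000854 in edgeR). *Egr1* did not pass the filter there. The share of all genes called is not given for these alternatives. With sums of at least 20 nuclei in place of 10, 6 members passed and 4 were higher in neurons, *Fos* by 1.61 ± 0.18, *Nr4a1* by 1.33 ± 0.17, *Junb* by 0.69 ± 0.21 and *Egr1* by 0.60 ± 0.17 on the log2 scale, where 36.1% of genes were called higher. *Jun* was lower there, with a difference of -2.23 ± 0.25, where 17.5% of genes were called lower. Without the filter all 10 members were tested and 8 were called higher, all but *Jun* and *Btg2*, where 29.8% of genes were. *Jun* was called lower, as were 11% of genes.

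*Fos* stood at 25.1 ± 9.30 CPM in neurons, 8.29 ± 4.74 in astrocytes, 9.58 ± 5.44 in oligodendrocytes and 30.8 ± 26.1 in fibroblasts. *Fosb* stood at 10.1 ± 6.53 in neurons and was listed at 0 in 8 of 10 microglia sums and 7 of 10 oligodendrocyte sums. *Npas4* stood at 16 ± 6.3 in neurons and 1.24 ± 1.47 in astrocytes, and its highest glial level was in ependymal cells, at 8.33 ± 5.98. In fibroblasts *Npas4* was at 13.5 ± 17.3 (n = 8), on 6 UMIs in all and with 4 of the 8 libraries at 0. Without the filter on low counts *Npas4* was called higher in ependymal cells (log2 change 1.70 ± 0.59, adjusted p = 0.0190 in edgeR). *Nr4a1* was close in neurons (20.4 ± 2.57) and OPCs (22.0 ± 13.9), whose spreads overlapped, and was low in astrocytes (1.72 ± 1.46). Its highest mean was in fibroblasts, at 38.3 ± 35.9 (n = 8 libraries), with endothelial cells at 19.9 ± 15.5 (n = 7), and both spreads included the neuronal level. *Egr3* (1.17 ± 0.519 in neurons) and *Egr4* (1.63 ± 1.47 in neurons) had 166 and 208 UMIs in the whole series, and *Egr4* had 0 UMIs in every oligodendrocyte, ependymal, endothelial and fibroblast sum. The mean of *Egr3* was highest in endothelial cells, at 8.90 ± 12.3 (n = 7), which rested on 6 UMIs in 4 nuclei with 4 of the 7 libraries at 0. Without the filter on low counts it was called higher there (log2 change 4.08 ± 0.99, adjusted p = 0.000864 in edgeR).

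**Figure D1:**
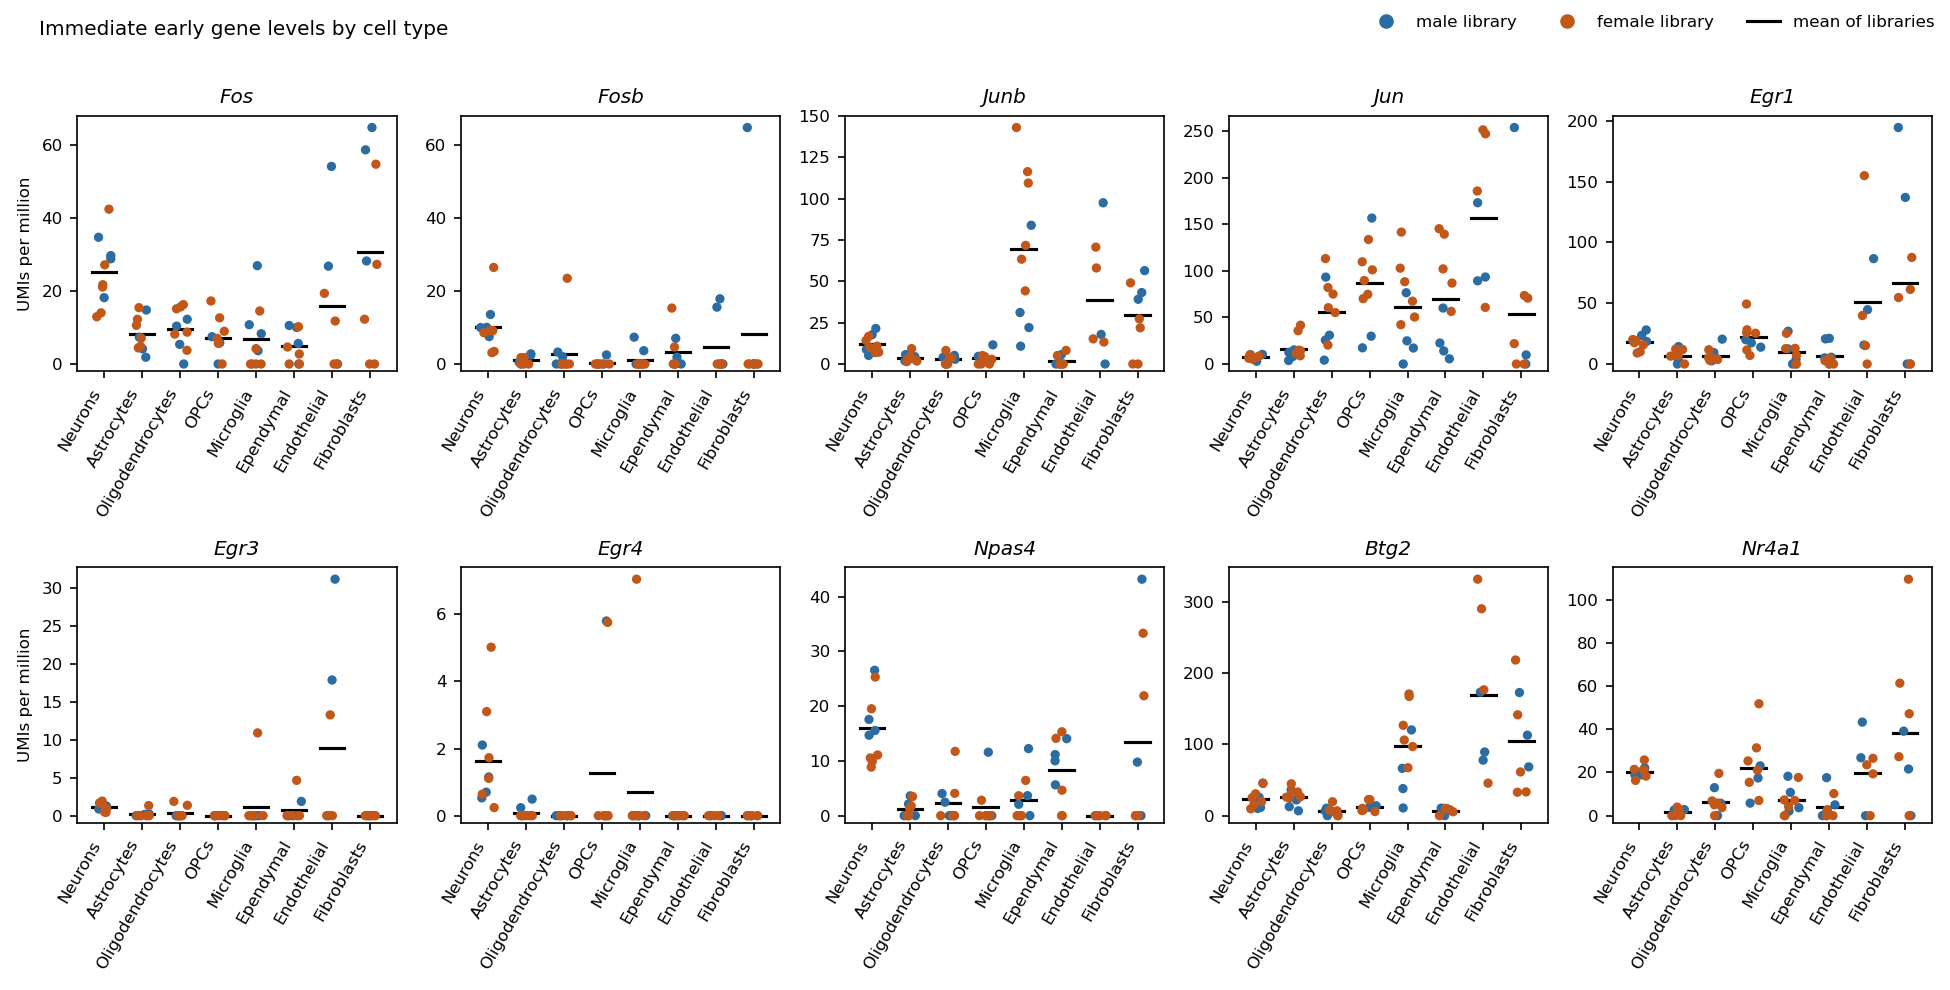
Level of each member (CPM, linear axis from 0 with a separate scale for each gene) in 8 cell types. Each point is 1 library that held 10 or more such nuclei, blue for male and orange for female, and the bar is the mean. The mean of *Jun* is lowest in neurons (7.47), the mean of *Junb* is highest in microglia (69.6), and *Egr4* is at 0 in most sums other than neurons.

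Glial nuclei held UMIs of neuronal genes: of glia with 0 members detected, 43.8% had at least 2 of 5 neuronal markers. The share of nuclei with a UMI is therefore given beside that in astrocytes. After each nucleus was thinned to 1500 UMIs (nuclei with fewer were left out, 103 of the neurons and 533 of the astrocytes), *Npas4* was found in 2.11% ± 0.900 of neurons and 0.170% ± 0.232 of astrocytes, and *Fosb* in 1.3% ± 1.07 and 0.124% ± 0.205. Before thinning the shares were 9.98% ± 4.62 and 0.393% ± 0.487 for *Npas4*, with median depths of 11157 and 3006.5 UMIs. *Jun* went the other way, at 1.17% ± 0.390 of neurons, 2.05% ± 1.88 of astrocytes, 12.6% ± 7.44 of OPCs and 9.04% ± 7.40 of microglia at 1500 UMIs. *Junb* was in 1.76% ± 0.907 of neurons, 0.489% ± 0.364 of astrocytes and 10.1% ± 5.77 of microglia.

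In neurons, every member was detected in every library. *Fos* levels in the male libraries were 18.2, 29.7, 34.7 and 28.8 CPM, and 13 at the lowest, 21.4 at the median and 42.4 at the highest in the female ones. The groups overlapped. *Npas4* levels were 14.7, 15.6, 17.6 and 26.6 in the male libraries and 8.88, 10.8 and 25.3 (lowest, median, highest) in the female ones. The female median lay below all 4 male libraries, and the groups overlapped. *Egr1* levels were 19.5, 18.5, 23.5 and 28 in the male libraries and 9.06, 16.6 and 20.1 in the female ones, and the groups overlapped between 18.5 and 20.1. *Nr4a1* varied little, at 22.1, 20.8, 18.9 and 18.9 in the male libraries and 16.3, 20.9 and 25.8 in the female ones. The AP-1 members other than *Fos* overlapped between the groups as well. *Fosb* was at 10.0, 7.52, 9.99 and 13.6 in the male libraries and at 3.12, 8.87 and 26.5 in the female ones. *Junb* was at 5.18, 21.5, 17.7 and 8.80 in the male libraries and at 6.96, 10.3 and 16.7 in the female ones. *Jun* was at 2.96, 9.96, 10.3 and 6.98 in the male libraries and at 5.27, 7.29 and 9.92 in the female ones. The rarest members, *Egr3* and *Egr4*, ranged from 0.431 to 1.92 and from 0.240 to 5.02 over the 10 libraries. *Btg2* varied more than *Nr4a1*, at 10.2, 45.8, 25.7 and 11.6 in the male libraries and 9.59, 22.5 and 45.2 in the female ones. Male replicate 1 held the lowest male level of *Jun* (2.96), *Junb* (5.18), *Btg2*, *Fos* (18.2) and *Npas4* (14.7), but not of *Fosb*, *Egr1* or *Nr4a1*. It also had the lowest median mitochondrial share, 0.123%, against 0.242% to 1.45% in the other libraries, and the deepest neurons (median 21085 UMIs). The part of that share or of depth in these levels was not tested.

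None of the 8 members that passed the filter was called between the sexes in neurons (edgeR, adjusted p under 0.05), where 15.1% of the 15265 genes tested were (6.5% higher and 8.57% lower in the female libraries). By DESeq2 the count was also 0. At an unadjusted p under 0.05 there was 1 member, *Egr1*, with a log2 change of -0.65 ± 0.24 (female minus male) and an adjusted p of 0.0952 in edgeR, which ranged from 0.0462 to 0.282 over the alternatives. *Egr1* passed the threshold without male replicate 2 (0.0462) and without the filter on low counts (0.0477). The log2 changes of the remaining 7 ran from -0.49 ± 0.31 for *Npas4* to 0.05 ± 0.44 for *Btg2*. Without the filter *Egr4* was at 0.60 ± 0.57 and *Egr3* at -0.09 ± 0.42. In astrocytes *Jun* and *Btg2* passed the filter. *Jun* was at 3.72, 12.5, 15.2 and 8.06 CPM in the male libraries and at 8.85, 14.6 and 41.7 in the female ones. *Btg2* was at 6.82, 36.2, 22.0 and 12.7 in the male libraries and at 25.2, 29.9 and 44.8 in the female ones. In both genes the groups overlapped, and the log2 changes of 1.10 ± 0.45 and 0.83 ± 0.36 had adjusted p = 0.125 and 0.139 in edgeR, so that 0 were called where 13.6% of genes were (7.61% higher and 6% lower in the female libraries). Both had an unadjusted p under 0.05, and DESeq2 called 0. The share of all genes under that unadjusted limit was not counted here or in neurons. *Btg2* passed without male replicate 2, with a log2 change of 1.15 and an adjusted p of 0.0122. Depth, gene annotation and deposit run with sex and cannot be told apart from it.

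**Figure D2:**
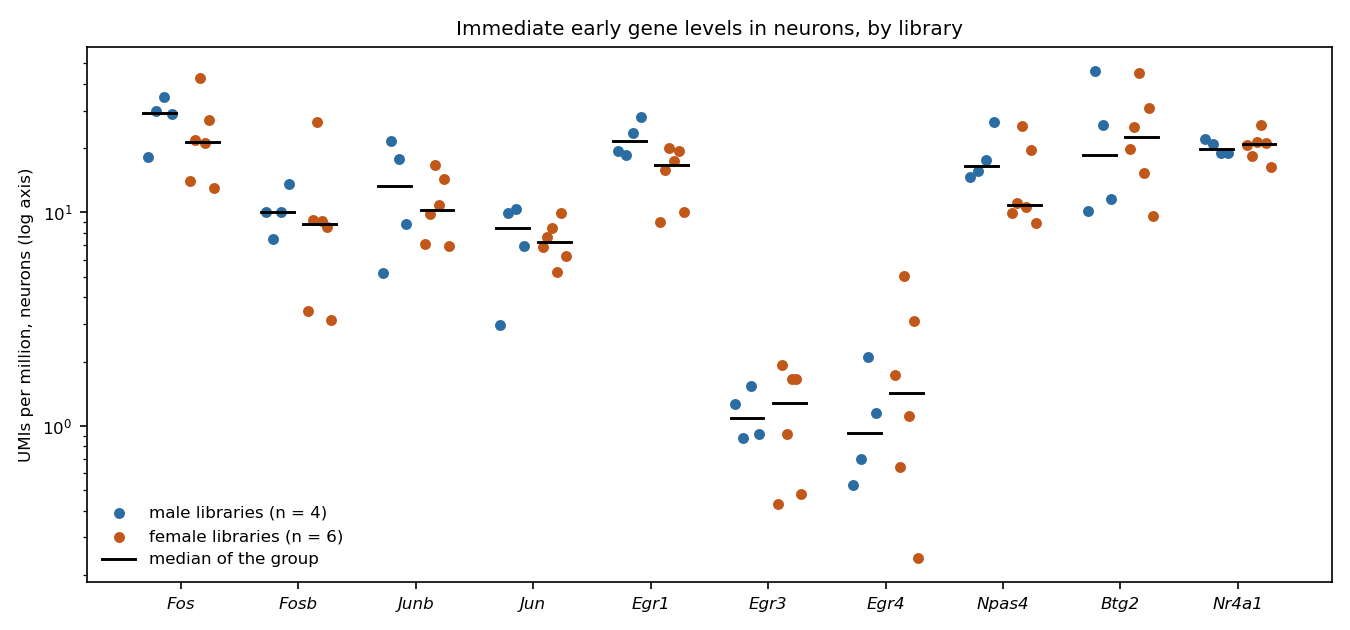
Level of each member in neurons (CPM, log axis), with 1 point per library in blue for the 4 male and in orange for the 6 female libraries, and the group median as a bar. The groups overlap for every member. *Fosb* in female replicate 3 (26.5) stands above the other libraries.

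Levels also varied among the 8 neuron clusters of the deposited annotation, which were formed on these same nuclei. All 7 members that passed the filter differed among clusters (edgeR, adjusted p from 7.10e-28 to 1.81e-10), but so did 83.8% of the 10963 genes tested, so the count is near the background. *Fos* was at 44.3 ± 21.3 CPM in cluster Neurons (2), 34.5 ± 10.4 in Neurons (1) and 7.77 ± 16.5 in Neurons (6). Female replicate 3 carried the mean in Neurons (6), with 54.1 CPM from 11 UMIs, and without it *Fos* was at 2.62 ± 2.87 there. *Nr4a1* had another order, with 36.4 ± 8.28 in Neurons (8), 34.8 ± 9.55 in Neurons (3), 28.4 ± 6.19 in Neurons (7) and 8.86 ± 4.34 in Neurons (4). *Btg2* was at 47.4 ± 25.8 in Neurons (2) and 6.41 ± 3.47 in Neurons (3). *Npas4* was between 16.8 ± 9.77 and 21.5 ± 8.70 in clusters Neurons (1), (2), (5), (7) and (8), whose spreads overlapped, and at 10.0 ± 5.22 or less in the other 3. In Neurons (6) *Npas4* was at 7.49 CPM, and at 2.86 ± 3.37 without female replicate 3.

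The members were detected together in neurons. Under independence within strata of library, deposited cluster and 5 groups of nuclei by depth, 5379 nuclei with both genes of a pair were expected over the 45 pairs, and 11719 were observed. A nucleus counts once for each pair it holds. The ratio was 2.25 ± 0.251 (SD, n = 10 libraries). It was 1.83, 1.95, 2.23 and 2.10 in the male libraries, and 2.36, 2.52, 2.68, 2.32, 2.32 and 2.16 in the female ones. In every library it lay above 1. With every nucleus thinned to 1500 UMIs the ratio was 3.64 ± 0.945, and without the 5% of deepest nuclei in each library and cluster it was 2.29 ± 0.339.

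The number of members per neuron was more uneven than independence gives. Neurons with 0 members numbered 5542, against 4170 expected. Neurons with 1 member numbered 2638 against 3517, and those with 2 numbered 949 against 1825. From 4 members upward the observed counts exceeded the expected ones: 304 against 182 neurons with 4 members, 210 against 35.5 with 5, and 160 against 4.83 with 6. In all, 492 neurons held 5 or more members where 40.8 were expected, and 2 neurons held all 10. Neurons with 3 or more members numbered 1281 (12.3%) against 898 expected, and the observed number was above the expected one in every library, by a factor of 1.11 to 3.37. Their share of neurons was 14.0% to 15.6% in the male libraries and 2.67% to 12.2% in the female ones, which are shallower, and the part of depth in that gap was not tested. By cluster the share was 14.9% ± 7.66 in Neurons (7), 14.0% ± 6.44 in Neurons (1), 13.2% ± 6.22 in Neurons (2), 12.8% ± 11.1 in Neurons (3), 12.7% ± 9.14 in Neurons (8), 8.60% ± 5.27 in Neurons (5), 3.41% ± 2.31 in Neurons (4) and 1.11% ± 1.49 in Neurons (6). Neurons (5) and (6) were the shallowest clusters, with medians of 6160.5 and 7084 UMIs. These 12.3% of neurons held 91.3% of the neuronal UMIs of *Fosb*, 84.6% of *Egr4*, 79.4% of *Fos* and 76.2% of *Npas4*, but 46.7% of *Jun* and 40.8% of *Nr4a1*. The choice of nuclei by these genes fixes a part of those shares and can affect their order among members, so both are only described.

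**Figure D3:**
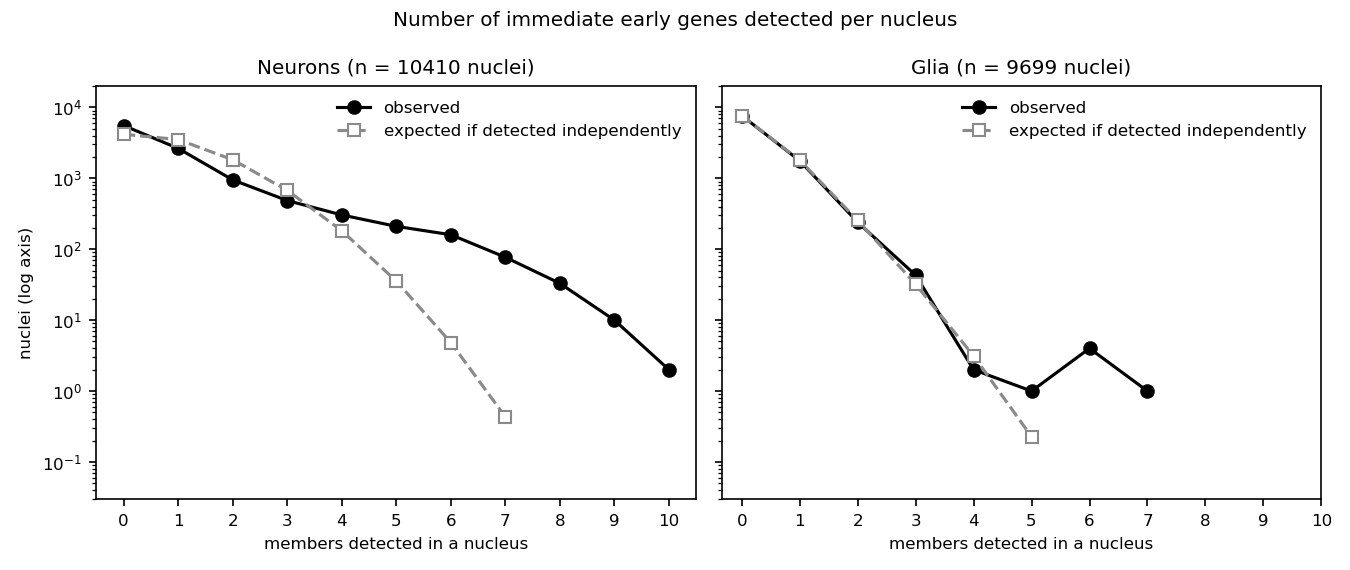
Number of members detected in a nucleus (x axis, 0 to 10) against the number of nuclei (log axis) in 10410 neurons and 9699 glia. Black points are observed and open squares are expected under independent detection at the same library, cluster and depth. In neurons the observed line crosses above the expected one from 4 members on, and in glia the lines lie together up to 4.

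Of the 45 pairs, 44 had enough expected co-detections to be tested. Co-detection was called for 41 of them (limma on Peto log odds ratios per library, adjusted p under 0.05 over all pairs of a member and any gene), where 0.875% of the 180306 pairs of a member and any gene were called positive and 0.0494% negative. None of the 44 was called negative. The ratio of observed to expected was above 1 for 45 of 45 pairs. It was highest among those tested for *Fosb* and *Egr4*, with 68 nuclei against 12.2 expected, and for *Junb* and *Egr4*, with 69 against 16.5. *Fosb* and *Egr4* were above expectation in 7 of 10 libraries, and *Junb* and *Egr4* in 9. The pair of *Fos* and *Fosb* was in 477 nuclei against 136 expected, *Fosb* and *Npas4* in 401 against 116, *Fos* and *Npas4* in 645 against 247, and *Fos* and *Egr1* in 762 against 319. Each of these 4 pairs was above expectation in 10 of 10 libraries. *Nr4a1* and *Jun* had the lower ratios. Pairs of *Nr4a1* with members other than *Jun* had ratios between 1.45, with *Btg2* (360 nuclei against 248), and 2.01, with *Egr4* (51 against 25.4). *Jun* was in the 3 pairs that were not called, with *Nr4a1* (211 nuclei against 184, adjusted p = 0.360), *Egr4* (22 against 11.5, adjusted p = 0.169) and *Egr3* (15 against 11.6, adjusted p = 0.753), while *Jun* with *Btg2* was called (218 against 114, adjusted p = 8.62e-11, limma).

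In glia the ratio over pairs was smaller. Over the 45 pairs, 472 co-detections were observed against 372 expected, a ratio of 1.29 ± 0.158 (n = 10 libraries), between 0.955 and 1.47 and above 1 in 9 of 10 libraries. With these strata the highest glial ratio lay below the lowest neuronal one. The glial ratio was 1.43 ± 0.146 with 10 and 1.44 ± 0.178 with 20 depth groups in place of depth and cluster, and 1.74 ± 1.75 with the mitochondrial limit, where it ran from 0.537 to 6.21, the highest in female replicate 3. It fell to 1.09 ± 0.229 without glia that held 2 or more neuronal markers and to 1.15 ± 0.229 without the deepest nuclei, and it was 0.986 ± 0.464 with nuclei thinned to 1500 UMIs, where 87 co-detections were left against 71.0 expected. Of 15 pairs that could be tested, 0 were called (limma), as were 0% of the 98129 pairs of a member and any gene in glia. At an unadjusted p under 0.05 there were 3 pairs above 1, *Junb* with *Egr1* (15 nuclei against 7.10), *Fos* with *Junb* (12 against 6.35) and *Jun* with *Btg2* (90 against 75.7), and over all genes 7.26% of pairs were. With strata of depth alone, without the cluster, 1 pair was called with 10 depth groups and 2 with 20, where 4.55% and 3.86% of all pairs were. Glia with 3 or more members numbered 51 of 9699, against 35.4 expected, and 27 of them were microglia. Pooled over libraries, that was a ratio of 1.44, against 1.43 in neurons. By library the ratio ran from 0 to 2.41 in glia and from 1.11 to 3.37 in neurons, and these ranges overlapped. The mean over libraries was lower in glia than in neurons, where it was 1.91 ± 0.769 (n = 10), so the closeness holds for the pooled counts only. Glia with 5 or more members numbered 6, against 0.239 expected, a ratio of 25.1 on few nuclei, where that of neurons was 12.1. Of the 51 glial nuclei, 29 held 2 or more neuronal markers, against 25.8 expected at their depth.

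**Figure D4:**
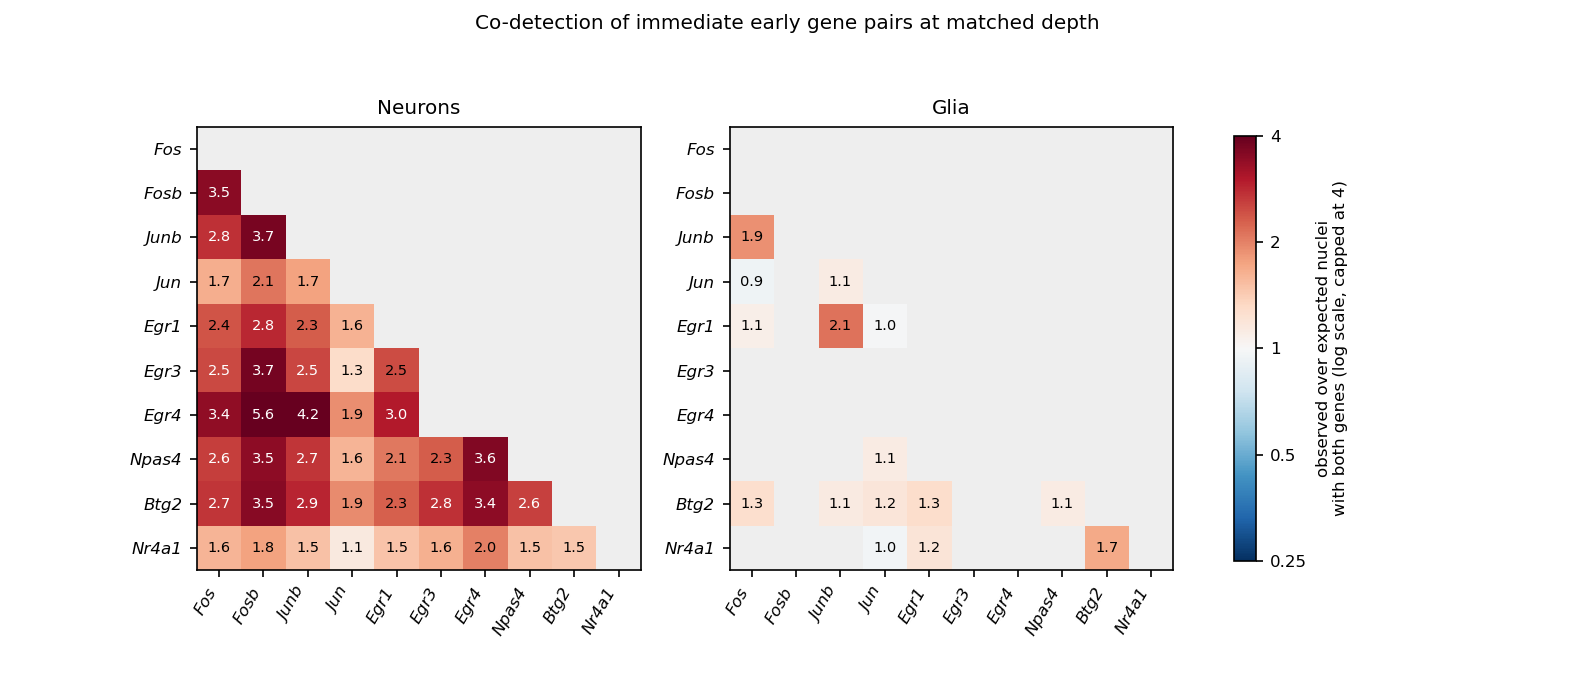
Ratio of observed to expected nuclei with both genes of a pair (colour on a log scale capped at 4, ratio printed in the cell) in neurons and in glia. Pairs with fewer than 5 expected nuclei are grey, as is the mirrored upper triangle. In neurons all ratios shown are above 1 and are lowest in the *Jun* and *Nr4a1* rows, and in glia most of the 15 pairs shown are near 1.

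Genes other than the members were compared between neurons with 3 or more members and neurons with 0, matched within library and cluster on depth. There were 1275 matched pairs, with medians of 14577 and 13928 UMIs, and the median mitochondrial share was 0.177% in both. Male replicates 4 and 3 held 539 and 323 of the pairs, so the pooled medians mostly describe them. Female replicates 6, 4 and 1 held 15, 28 and 31, and levels in those libraries rest on few nuclei. Of 8551 genes tested, 440 were higher in the IEG-rich neurons and 116 were lower (edgeR, library as a block, adjusted p under 0.05), which is 5.15% and 1.36%. The count of higher genes was 287 without male replicate 3 and 286 without male replicate 4, the libraries with most nuclei. It was 313 by DESeq2 and 67 without the library term. The members themselves were used to choose the nuclei and were not tested.

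*Nr4a3*, a nuclear receptor of the same family as *Nr4a1*, had the largest change among genes higher in every library, at 3.82 ± 0.12 on the log2 scale. Its level in the IEG-rich neurons was 111, 71.5, 94.5 and 85.9 CPM in the male libraries, against 6.28, 3.28, 3.41 and 9.82 in the matched neurons. In the female libraries it was between 61.0 and 161, against 0 to 14.9. The classes did not overlap. *Dusp1*, a phosphatase that switches off MAP kinases, was next at 3.34 ± 0.14 (58.7 ± 27.6 against 4.57 ± 3.14 CPM, n = 10), followed by *Sik1*, a kinase that restrains CREB coactivators, at 2.34 ± 0.10. The other genes among the 10 largest were *Plk2* (2.15), a kinase, *Pcsk1* (1.87), a prohormone convertase, *Gm47423* (1.71), *Per1* (1.65), a circadian clock gene that CREB also induces, *Tiparp* (1.63), *Coq10b* (1.5) and *Ifrd1* (1.49). Of these 10, 4 were in the list of other rapid response genes and 3 in the list of delayed ones, which were drawn up with earlier results of these data known.

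Of 36 other rapid response genes, 8 passed the filter and all 8 were higher. A gene with low counts could pass only through the class in which it was high, so this count describes those genes and not the list. Without the filter 21 of the 36 were called higher and 0 lower, where 2.03% of 26031 genes were called higher. The 5 with the smallest p were *Nr4a3*, *Sik1*, *Dusp1*, *Per1* and *Homer1* (1.16 ± 0.09), whose short form reshapes the postsynaptic scaffold. Of 20 delayed or secondary response genes, 16 passed and 11 were higher, 0 lower, with a median log2 change of 0.48 against -0.01 over all genes, of which 5.15% were higher. The same limit of the filter holds for this count. Without the filter 14 of the 20 were called higher, against the 2.03% given above. *Bdnf*, a neurotrophin, rose by 1.00 ± 0.07 on the log2 scale (87.8 ± 49.8 against 46.3 ± 24.4 CPM) and was higher in 9 of 10 libraries. *Tiparp*, *Plk2*, *Pcsk1* and *Crem* (0.91 ± 0.10), which encodes cAMP-responsive activators and repressors, rose as well. Of 20 genes upstream, among them receptors, kinases and transcription factors, 16 passed and 0 were called in either direction, with a median of 0.01. With 5.15% of all genes higher and 1.36% lower, a count of 0 among 16 is near the background. The count was also 0 without the filter. An unadjusted p under 0.05 was found for 4 of the 16, and the share of all genes at that limit was not counted. The smallest adjusted p was that of *Creb1* (0.21 ± 0.07, adjusted p = 0.0626 in edgeR), followed by *Grin1* (0.12 ± 0.05), *Mef2d* (0.14 ± 0.06), *Camk4* (-0.10 ± 0.05) and *Cacna1c* (0.07 ± 0.04).

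**Figure D5:**
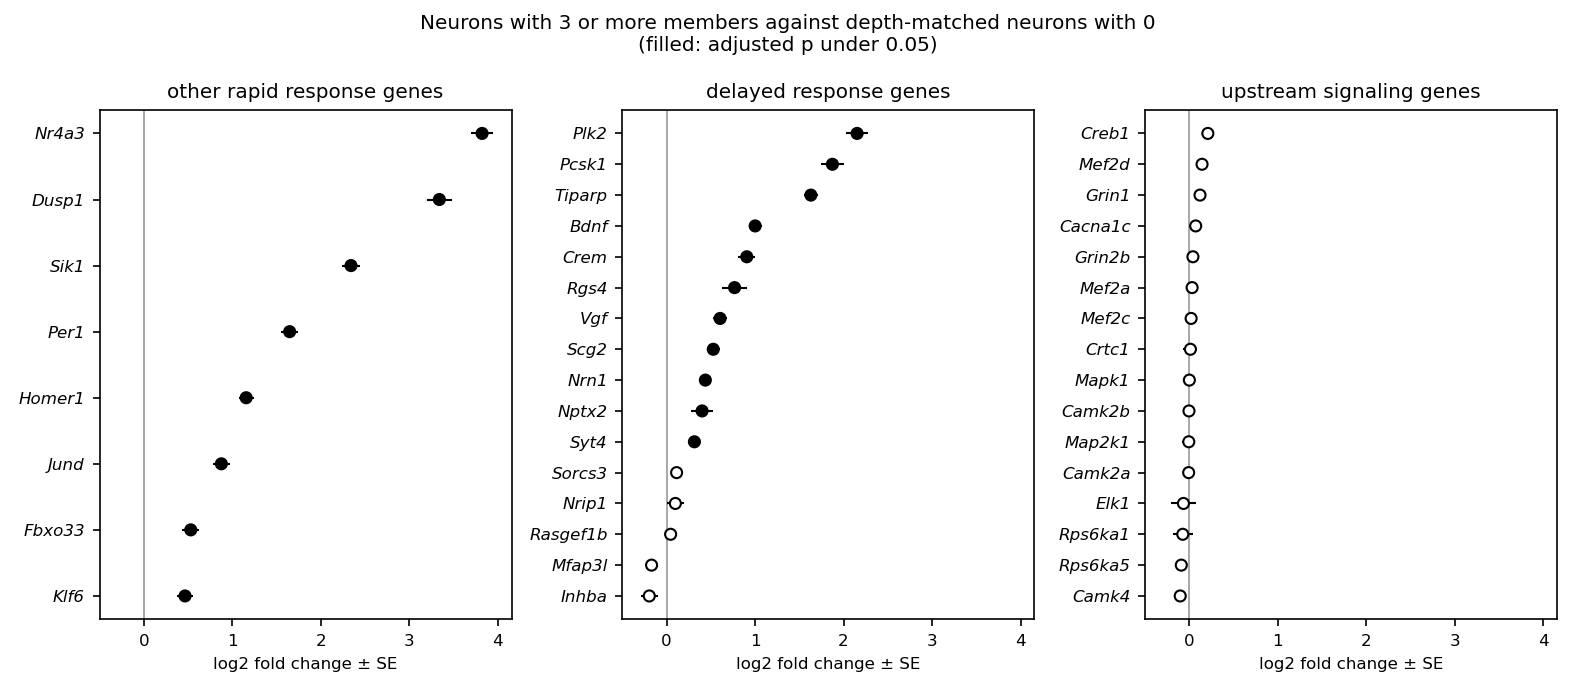
Log2 fold change with SE of pathway genes between neurons with 3 or more members and depth-matched neurons with 0 (positive is higher in the IEG-rich neurons), with filled points for an adjusted p under 0.05. All 8 rapid response genes tested and 11 of 16 delayed ones are above 0 and filled, and the 16 upstream genes lie near 0 and are open.

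The genes outside the set that went with each member most closely were named by their log odds ratio, among those called and above 0 in every library. The ratio is a 1-step estimate that is inexact for strong ties. *Dusp1* was among the 3 genes named for 6 of the 10 members and *Nr4a3* among those of 5. For *Fos* the genes were *Apold1* (log2 odds ratio 3.26 ± 0.24), *Fosl2* (3.23 ± 0.24), which encodes another AP-1 subunit, and *Dusp1* (3.19 ± 0.14). For *Fosb* they were *Dusp1* (4.68 ± 0.25), *Nr4a3* (3.88 ± 0.19) and *Sik1* (2.82 ± 0.15). For *Npas4* they were *Dusp1* (2.95 ± 0.17), *Ier2* (1.95 ± 0.23) and *Sik1* (1.83 ± 0.12). For *Nr4a1* they were *Nr4a3* (1.73 ± 0.11), *Ovca2* (1.60 ± 0.27) and *Adamts1* (1.32 ± 0.20). For *Jun* the ties were weaker, among them *Nr4a3* (0.74 ± 0.13) and *Adcy2* (0.55 ± 0.11), which encodes an adenylyl cyclase. *Jun* had 30 positive genes of 18210 tested, against 281 of 19851 for *Fos*. *Egr3* had 25 of 13295, of which *Homer1* (1.24 ± 0.26) was the only one above 0 in every library, and *Egr4* had *Pcsk1* (2.22 ± 0.44), *Usp36* (1.79 ± 0.26) and *Gm26658* (1.74 ± 0.26). For *Junb* the genes were *Dusp1* (2.89 ± 0.20), *Apold1* (2.83 ± 0.32) and *Nr4a3* (2.53 ± 0.18), for *Btg2* they were *Dusp1* (2.76 ± 0.16), *Fosl2* (2.69 ± 0.19) and *Ier2* (2.32 ± 0.21), and for *Egr1* they were *Ier2* (2.32 ± 0.25), *Dusp1* (2.23 ± 0.14) and *Nr4a3* (2.14 ± 0.14).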

How the data were processed

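Raw UMI counts per gene and nucleus, deposited by the authors for 10 libraries, were used with the deposited cell type and cluster names. Counts of *Ccn1* were added to *Cyr61* and those of *Ccn2* to *Ctgf*, which are newer and older names of the same genes. No other symbols were merged, so a gene named differently between the sexes stays split. Per the submitters' processing notes, reads were counted with Cell Ranger 6.1.1 on mm10, where the paper's methods name another version. The authors removed nuclei with few genes or a high mitochondrial share. The percent of mitochondrial UMIs per nucleus was taken from the deposited metadata, where 21 other columns were not used. The 13 mitochondrial genes had 0 UMIs in the male matrices. Doublet classes were listed for the 13002 male nuclei (all singlets) and for 0 female nuclei, and no doublet caller was run.

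UMIs were summed per library and cell type or neuron cluster (at least 10 nuclei) and tested with edgeR 4.0.16 (TMM, quasi-likelihood test, Benjamini-Hochberg over all genes that passed filterByExpr), and with DESeq2 1.42.0 as an alternative. Cell type calls also needed a log2 change beyond 0.5. Co-detection was stratified by library, cluster and 5 depth groups, and Peto log odds ratios per library were tested with limma 3.58.1 where at least 5 co-detections were expected. Neurons with 3 or more members were each matched to the nearest unused neuron with 0 members in depth. The steps were tested on simulated data. R 4.3.3 and Python 3.11.15 were used.

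The members and lists were chosen with earlier results of these data known. Genes outside the set were named as the 10 largest changes among those called and higher in every library, up to 5 genes per pathway list with the smallest adjusted p, and 3 genes per member with the largest odds ratio called and above 0 in every library. For *Jun*, 1 of these genes is not reported here. Nothing says that libraries of a group came from separate preparations beyond their labels, so p-values measure the spread between these libraries. Replicate numbers are shared by the groups, and the alternatives tried were other scaling, filters, depth strata, thinning, limits on mitochondrial share and leaving out each library.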

Additional observations from a re-analysis of the deposited data

Results flagged for a closer look

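The level of *Fosb* in neurons stood apart in female replicate 3, at 26.5 CPM (UMIs scaled to the same total), where the other 5 female libraries held 3.12, 3.45, 8.58, 9.16 and 9.16. The gap to the nearest library was 0.741 of the range of the group. Of 30 groups checked, this was the 1 in which a library stood apart, and chance gives about 1 in 20 groups.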

How the results depend on the processing

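The number of members higher in neurons was 0 with the settings of the report (29.7% of genes were higher). It was 8 without the filter on low counts (29.8%) and 4 with sums of at least 20 nuclei (36.1%). It was 1 with nuclei of at most 1% mitochondrial UMIs, 1 without nuclei of other types with 2 or more neuronal markers, and 0 to 2 over the libraries left out in turn. The share of all genes is not given for these last settings. The members that passed the filter also differed between settings, so the counts are not directly comparable. Between the sexes, 1 member was called in neurons without the filter, and leaving out libraries gave 0 to 1 in neurons and in astrocytes, the 1 in each case without male replicate 2. Genes higher in IEG-rich neurons numbered 440, against 67 without the library term, 1150 without matching on depth, and 286 to 477 over the libraries left out. Genes lower numbered 116, against 33 by DESeq2, 0 without the library term and 916 without matching. Glial pairs called numbered 1 with 10 and 2 with 20 depth groups without the cluster. The ratio of co-detection in neurons was 3.64 in thinned nuclei. In glia it was 1.74 with the mitochondrial limit, 1.09 without glia with 2 or more neuronal markers, and 0.986 in thinned nuclei. In thinned glia 5 of the 10 libraries lay above 1, and the ratio pooled over libraries was 1.22. The causes were not tested.

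Pairing by replicate number was checked between male and female neuron sums. The correlations of same-numbered libraries were -0.076, -0.054, -0.114 and 0.078, so the numbers did not pair the samples. With the replicate block, 0 members were called in neurons and 0 in astrocytes, and all genes called numbered 1776 in place of 2300 in neurons and 797 in place of 1331 in astrocytes.

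*Egr3* and *Egr4*, with 166 and 208 UMIs in all, and the members in endothelial cells and fibroblasts are limited by depth.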
